A study of Mus musculus with 16 samples.

Results

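The nuclear genes that encode the subunits of the mitochondrial respiratory chain and ATP synthase were followed across hippocampus and cortex of mice with a conditional deletion of the transcription factor Foxp1 and of littermate controls. Members were chosen by symbol: rows of the deposited table of CPM (read counts scaled to the size of each library) that begin with Nduf plus a, b, c, s or v and a digit, are Sdha to Sdhd, or begin with Uqcr, with Cox and a digit from 4 to 8, or with Atp5. This rule found 84 of the 21999 listed genes, of which 37 fall in complex I, 4 in complex II, 8 in complex III, 18 in complex IV and 17 in complex V. The symbols and the enzymes do not match everywhere. Ndufa4 is known as a subunit of complex IV despite its name, Cox7a2l is known for its role in supercomplexes of complexes III and IV, and Atp5s and Atp5sl are named after ATP synthase without being among its subunits. All 84 had a gene in the GENCODE annotation of the mouse genome build GRCm38. The 13 subunit genes of the mitochondrial genome were listed at 0 in all 16 libraries and were not analysed here.

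The libraries came from 4 Foxp1 conditional knockout (cKO) hippocampi, 4 littermate control hippocampi, 4 Foxp1 cKO cortices and 4 littermate control cortices, all from the left hemisphere of male mice at postnatal day 47. The design text calls the replicates independent, and the series title places the deletion in forebrain pyramidal neurons. The sources used here do not give the Cre driver, the floxed allele, or the mouse behind each library, so tissue from 1 mouse may be in both regions. Depth was 6943136 to 14055344 reads in cKO hippocampus, 9578904 to 14817870 in control hippocampus, 8160441 to 9164571 in cKO cortex and 7075560 to 9037821 in control cortex. Foxp1 itself averaged 119 ± 16.0 CPM in cKO hippocampus and 227 ± 45.3 CPM in control hippocampus, and 113 ± 21.2 CPM in cKO cortex and 284 ± 14.1 CPM in control cortex (SD, n = 4 each). The groups did not overlap in either region, and the exact 2-sided permutation p was 0.0286 in each, the smallest that 4 against 4 libraries allow.

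Oxidative phosphorylation passes electrons from NADH and succinate through complexes I and II to complex III and then complex IV, cytochrome c oxidase, which reduces oxygen. The proton gradient that complexes I, III and IV build drives ATP synthase, complex V. Neurons depend on this pathway for the energy that ion pumping and synaptic transmission use, and several subunits exist as isoforms that differ between tissues.

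Levels were set side by side per kilobase of 1 principal transcript for each gene, since CPM does not correct for length. The median member stood at 36.4 CPM per kilobase over the 16 libraries. Cox6c, a small complex IV subunit, was highest with 377 CPM per kilobase, followed by Ndufa4 with 205 and Atp5b, the catalytic beta subunit of ATP synthase, with 204. By complex, the medians per kilobase were 29.3 CPM for complex I, 33.9 for complex II, 34.9 for complex III, 41.4 for complex IV and 40.4 for complex V.

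Of the paired isoforms of complex IV, the widely expressed one made up nearly all of the measured RNA. Cox4i1, the regulatory subunit used in most tissues, stood at 156 CPM per kilobase over the 16 libraries, while its lung-enriched isoform Cox4i2 stood at 0.81. Cox6a1 stood at 107 and its heart and muscle isoform Cox6a2 at 1.19 CPM per kilobase, and Cox6b1 stood at 118 and its testis isoform Cox6b2 at 1.02. Cox7a2 was at 92.4 and its muscle isoform Cox7a1 at 0.61 CPM per kilobase, and Cox7b was at 71.6 and Cox7b2 at 0.82. Cox8a was at 53.8 and its muscle isoform Cox8b at 0.18, and Cox8c was listed at 0 in all 16 libraries.

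Of the 3 genes for the c-ring of ATP synthase, which encode the same mature protein, Atp5g3 stood at 113 CPM per kilobase, Atp5g1 at 4.76 and Atp5g2 at 4.47. The level of Atp5g1 per kilobase depends on its principal transcript, at 4715 bases the longest of the 84 members. In plain CPM Atp5g1 averaged 22.4, against 1.97 for Atp5g2 with 441 bases. The level of Atp5g2 is uncertain as well. None of its 50-base windows is unique in the annotated transcripts, so reads can be shared with near-identical copies. Atp5l, a membrane subunit of ATP synthase, was all but unmeasured at up to 0.66 CPM, and 15.2% of its windows were unique. In all, 19 of the 84 members had under 80% unique windows, and the sources used here do not say how reads with several matches were counted.

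For the tests, values were taken as log2(CPM + 0.5), which understates changes of low genes. A gene was tested with limma if it averaged 0.5 CPM or more, and a Benjamini-Hochberg adjusted p below 0.05 over all genes tested was called. Atp5l, Cox7a1, Cox7b2, Cox8b and Cox8c fell below that minimum in every comparison, and Cox6b2 also did in the cortex comparison. That left 79 of 84 members in hippocampus and in the comparisons between regions, and 78 in cortex.

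The summed CPM of each complex showed little difference between genotypes. In cKO hippocampus the 84 members summed to 3781 to 4438 CPM over 4 libraries, with a mean of 4140 ± 274, against 3957 to 4210 CPM and a mean of 4135 ± 119 in control hippocampus. In cKO cortex they summed to 4345 to 4945 CPM, with a mean of 4509 ± 291, against 4415 to 4628 CPM and a mean of 4550 ± 92.9 in control cortex (SD, n = 4 each). The ranges of cKO and control libraries overlapped in both regions. The highest sum, 4945 CPM, came from 1 cKO cortex, DJ1, while the other cKO cortices lay between 4345 and 4381 CPM. By complex, the mean of cKO hippocampus was 99.1% to 103% of the control mean, and the mean of cKO cortex was 95.8% to 106% of its control mean, with the lowest share in complex IV of cortex and the highest in complex II of cortex. With median-of-ratios rescaling, which removes the differences between libraries in the bulk of genes, these shares were 95.1% to 98.3% in hippocampus and 93.2% to 103% in cortex. On that scale complex I no longer overlapped in hippocampus, with sums of 1172 to 1246 in cKO and 1249 to 1283 in control hippocampus, while the other complexes and cortex still overlapped. The total of cytosolic ribosomal protein genes, which also encode short and abundant mRNAs, averaged 3982 ± 364 CPM in cKO hippocampus and 3678 ± 60.5 CPM in control hippocampus, and 3920 ± 246 CPM in cKO cortex and 3772 ± 227 CPM in control cortex.

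**Figure D1:**
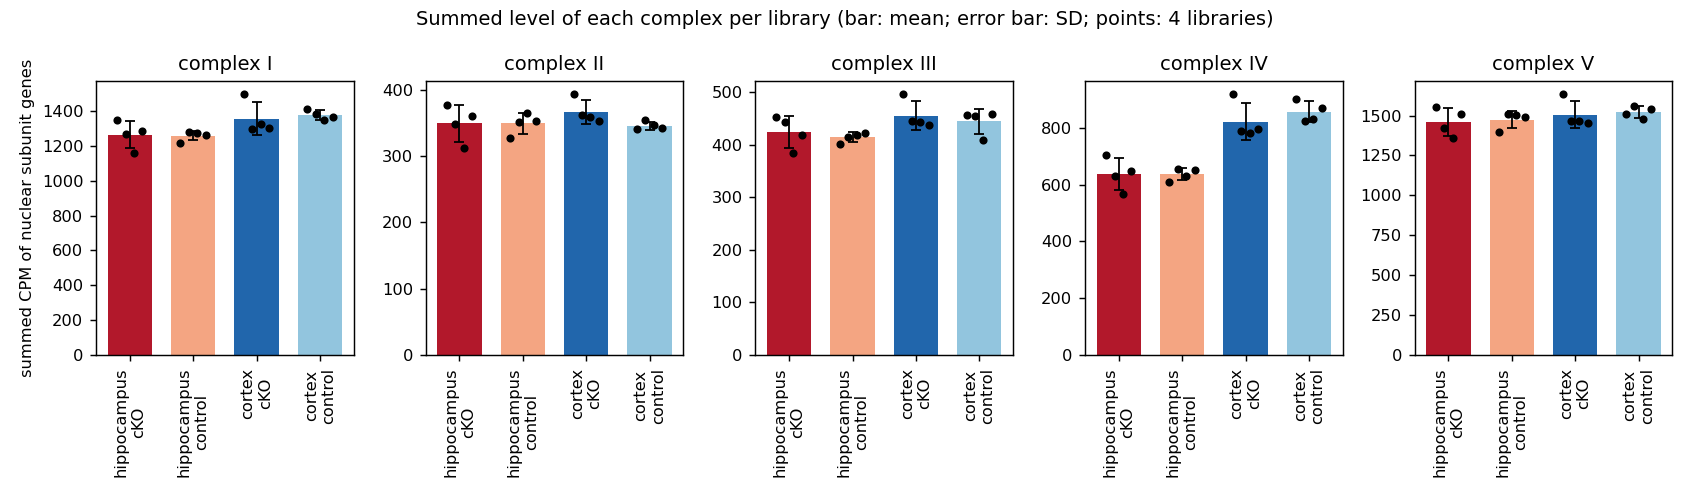
Summed CPM of the nuclear subunit genes of complexes I to V in each of 16 libraries, by group, with bars at the mean and error bars at 1 SD over 4 libraries. The complex IV panel separates the regions, with 611 to 654 CPM in control hippocampus and 824 to 903 CPM in control cortex, while cKO and control libraries of the same region overlap on this CPM scale.

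The first question of the design was what loss of Foxp1 does in hippocampus. No member was called of 79 tested, where 1.38% of the 13899 genes tested in hippocampus were called, and no member had an unadjusted p below 0.05. With edgeR's quasi-likelihood test on the recovered reads no member was called either, and 2 had an unadjusted p below 0.05. The members' median log2 fold change was 0.01, against 0.06 over all genes tested. After median-of-ratios rescaling these medians were -0.04 and 0.00. The 95% interval of the log2 fold change lay within ±0.5, a change of 1.41-fold, for 70 of 79 members, so larger changes lay outside the intervals of those genes. The 9 wider intervals included the low genes Cox4i2, Cox6a2, Cox6b2 and Ndufa4l2, and that of Cox6b2 reached 0.94.

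The members with the smallest p in each complex show the size of the differences in hippocampus. Atp5g3 had 80.7, 69.4, 73.1 and 90.9 CPM in cKO hippocampus, against 92.1, 80.8, 96.2 and 86.4 CPM in control hippocampus (log2 fold change -0.18, SE 0.09, limma adjusted p = 0.41). Ndufb8, an accessory subunit of the membrane arm of complex I, had 29.9, 25.3, 24.5 and 25.3 CPM in cKO hippocampus, against 20.98, 23.5, 23.6 and 25.5 CPM in control hippocampus (0.16, SE 0.10, limma adjusted p = 0.50). The 2 groups overlapped for both genes. Cox6b2 had 0.94, 0.72, 1.16 and 1.00 CPM in cKO hippocampus and 0.52, 0.45, 1.02 and 0.40 CPM in control hippocampus, with a log2 fold change of 0.43 (SE 0.24, limma adjusted p = 0.46). At this depth 1 read is worth 0.0675 to 0.144 CPM, so these values rest on few reads. The smallest p of complex III belonged to the core protein gene Uqcrc1, at 55.4 ± 7.43 CPM in cKO and 50.7 ± 6.66 CPM in control hippocampus, and that of complex II to the membrane anchor gene Sdhd, at 32.9 ± 2.06 CPM in cKO and 34.1 ± 3.98 CPM in control hippocampus.

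The same question in cortex gave the same count. None of 78 members was called in cortex, where 13.5% of the 13713 genes tested were called, 1047 higher and 800 lower in cKO, and 2 members had an unadjusted p below 0.05. By edgeR none was called either, and 6 had an unadjusted p below 0.05. The members' median log2 fold change was -0.02, against 0.03 over all genes tested, and -0.05 and 0.00 after median-of-ratios rescaling. The 95% interval lay within ±0.5 for 72 of 78 members, and Atp5sl, Cox4i2, Cox6a2, Ndufa11, Ndufa4l2 and Ndufs5 were the exceptions.

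Sdhb, the iron-sulfur subunit of succinate dehydrogenase, had the smallest p in cortex. It stood at 57.3, 53.3, 47.6 and 46.7 CPM in cKO cortex, against 46.8, 44.3, 41.4 and 44.8 CPM in control cortex (log2 fold change 0.20, SE 0.08, limma adjusted p = 0.11). The lowest cKO library lay just below the highest control library. Atp5sl had 14.4, 13.1, 13.3 and 13.4 CPM in cKO cortex and 13.4, 17.8, 16.7 and 18.1 CPM in control cortex (-0.27, SE 0.12, limma adjusted p = 0.15), with control DJ3 inside the cKO range. Without DJ3 the gene was called (-0.36, SE 0.11, limma adjusted p = 0.035). Cox6c stood at 245, 180, 181 and 200.2 CPM in cKO cortex and 232, 198, 226 and 242 CPM in control cortex (-0.16, SE 0.08, limma adjusted p = 0.25), with cKO DJ1 above all controls. Without DJ1 it was called (-0.26, SE 0.07, limma adjusted p = 0.014). Of complex I the smallest p was that of Ndufa9, an accessory subunit, at 54.6 ± 1.79 CPM in cKO and 50.5 ± 2.00 CPM in control cortex, and of complex III that of Uqcrc1, at 59.1 ± 4.68 CPM in cKO and 54.5 ± 4.37 CPM in control cortex. Neither was called.

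Of the core genes, Sdha, Ndufs1, Uqcrfs1 and Atp5b are given here, while Sdhb, described above, had the smallest p in cortex. Sdha, the flavoprotein of succinate dehydrogenase, averaged 248 ± 20.3 CPM in cKO and 247 ± 13.6 CPM in control hippocampus, and 248 ± 6.52 CPM in cKO and 234 ± 7.98 CPM in control cortex. Ndufs1, the largest iron-sulfur subunit of complex I, averaged 143 ± 3.58 CPM in cKO and 145 ± 3.32 CPM in control hippocampus, and 139 ± 8.79 CPM in cKO and 148 ± 4.29 CPM in control cortex. Uqcrfs1, the Rieske iron-sulfur protein, averaged 32.3 ± 1.62 CPM in cKO and 31.6 ± 0.76 CPM in control hippocampus. Atp5b averaged 380.3 ± 31.0 CPM in cKO and 389 ± 17.3 CPM in control hippocampus, and 387 ± 13.6 CPM in cKO and 409 ± 19.3 CPM in control cortex. No difference between genotypes for these 4 genes was called.

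**Figure D2:**
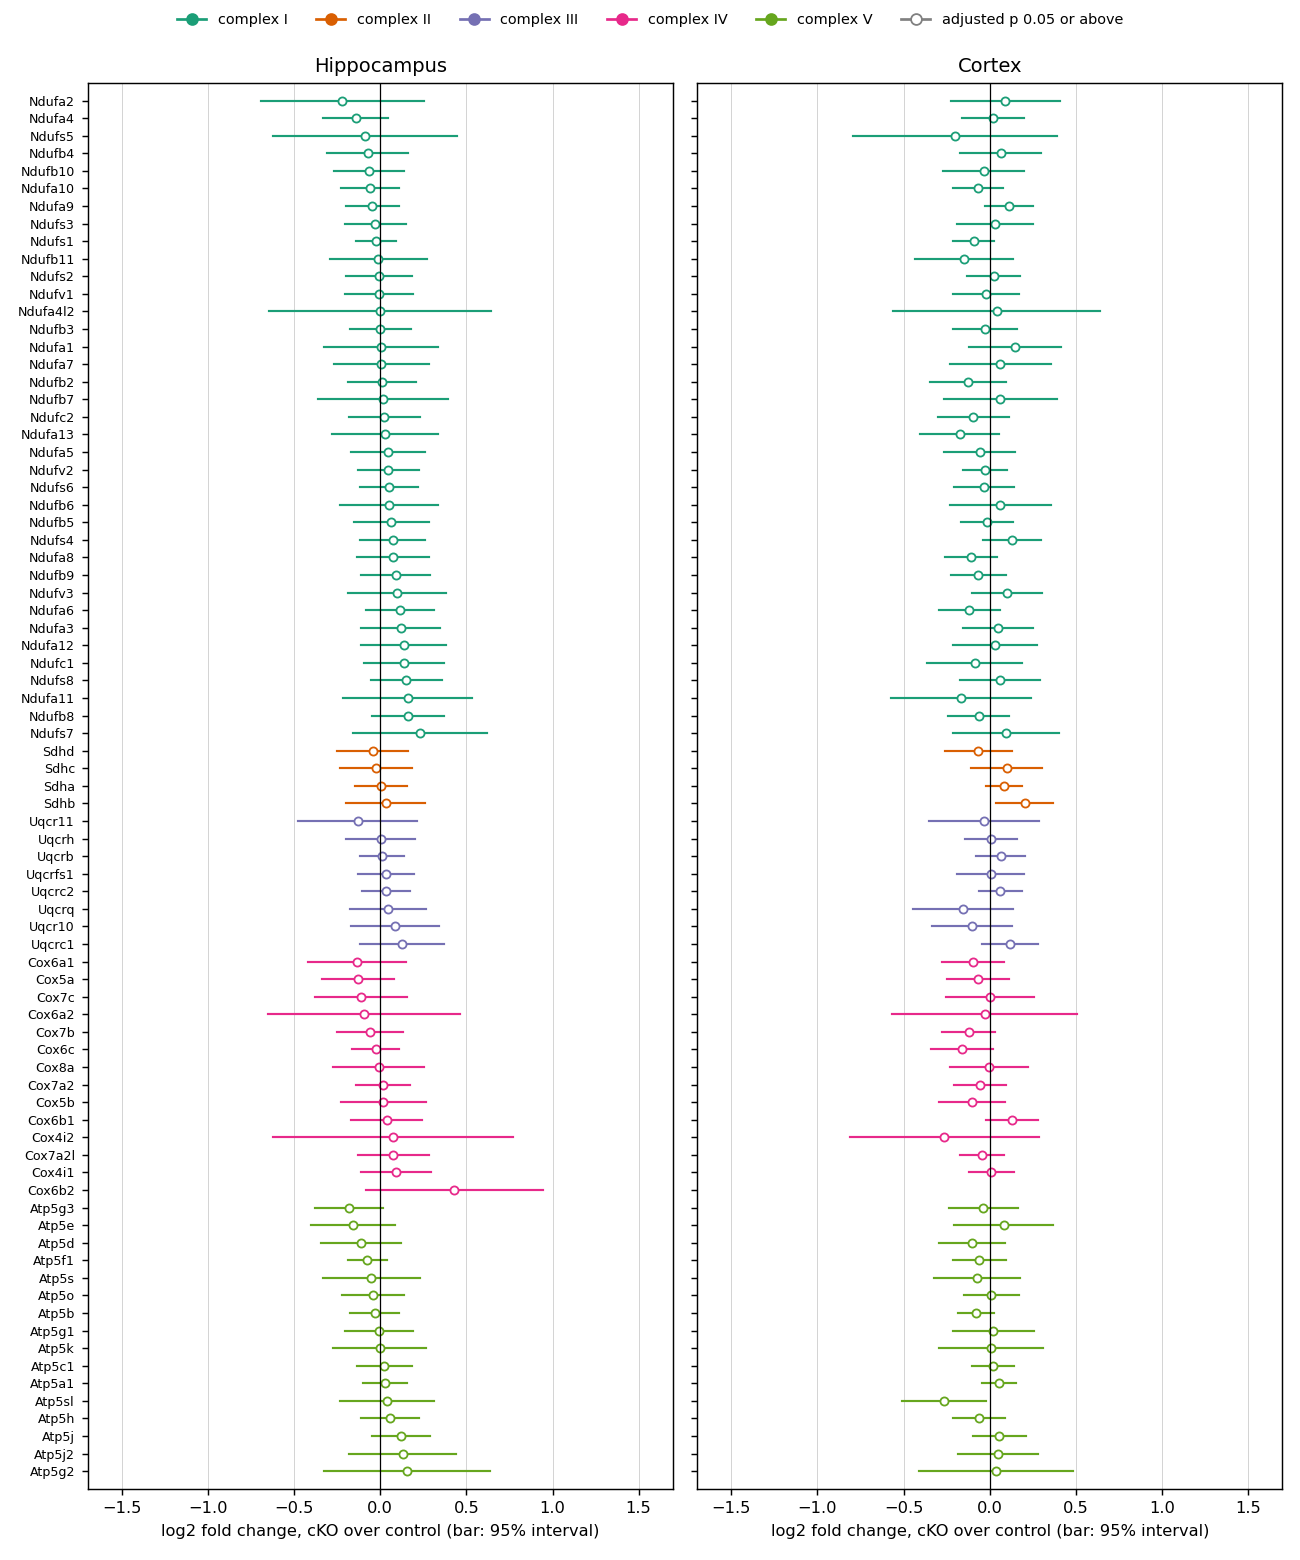
Log2 fold change of each tested member, cKO over control, in hippocampus on the left and cortex on the right, with 95% intervals and members grouped by complex. All points are open because no member had an adjusted p below 0.05, and Cox6b2 was not tested in cortex.

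Whether the effect of genotype differed between the regions was tested as an interaction. No member was called of 79, where 2.72% of 13881 genes were, and none had an unadjusted p below 0.05 by limma. By edgeR none was called either, and 1 had an unadjusted p below 0.05. The members' median was 0.02, as it was over all genes tested. The smallest p belonged to Ndufa6 (0.23, SE 0.12, limma adjusted p = 0.43), Atp5sl (0.30, SE 0.17, adjusted p = 0.45) and Ndufb8 (0.22, SE 0.12, adjusted p = 0.46). The 95% interval lay within ±0.5 for 60 of 79 members, so differences between the regions' genotype effects were measured less closely than the effects themselves.

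The authors' deposited tables list 243 genes for hippocampus and 874 for cortex, and none of the 84 members is in either. The authors' deposited table for cortex does hold 3 genes of the wider pathway lists, Ttc19, Ppargc1a and Esrrg.

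The regions themselves differed, and here the subunit genes went one way. Control hippocampus had lower levels than control cortex for 27 of 79 members, 34.2% of those tested, and no member was higher. Over all genes tested, 38% were called in this comparison, and 16.7% were lower in hippocampus. The members' median log2 fold change was -0.17, against 0.02 over all genes tested, and 63 of 79 members had a value below 0. Complex IV held 11 lower genes of 14 tested, 78.6%, with a median of -0.37, and its summed level in control hippocampus was 74.3% of that in control cortex (73.2% after rescaling). The other complexes had 12 of 37 lower in complex I (median -0.17), 0 of 4 in complex II (-0.08), 2 of 8 in complex III (-0.13) and 2 of 16 in complex V (-0.10). Whether complex IV differs from the other complexes was not tested.

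The labels number the cortex libraries DJ1 to DJ8 and the hippocampus libraries DJ15 to DJ22, so library series and region cannot be told apart. In bulk tissue, fewer cells of a type and less RNA per cell cannot be told apart either.

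Among complex IV genes, Cox7b had the largest difference. It encodes a small membrane subunit and lies at chrX:106015700-106022450 on the plus strand (GRCm38). Cox7b stood at 51.3, 54.5, 56.1 and 60.7 CPM in control hippocampus, against 100.1, 85.9, 85.5 and 99.4 CPM in control cortex (log2 fold change -0.73, SE 0.08, limma adjusted p = 5.6e-07). Every hippocampal library lay below every cortical one. Cox6a1, a regulatory subunit at chr5:115345642-115348981 on the minus strand, stood at 44.3, 52.6, 48.9 and 49.2 CPM in control hippocampus, against 85.5, 80.4, 78.0 and 68.3 CPM in control cortex (-0.67, SE 0.12, limma adjusted p = 0.00012). Cox8a, at chr19:7215153-7217616 on the minus strand, stood at 20.04, 23.4, 23.4 and 23.8 CPM in control hippocampus, against 45.2, 38.0, 30.5 and 33.3 CPM in control cortex (-0.67, SE 0.12, limma adjusted p = 0.00016). The groups were separate for both genes.

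The abundant complex IV genes were lower too. Cox6c stood at 172, 170.2, 158 and 172 CPM in control hippocampus, against 232, 198, 226 and 242 CPM in control cortex (-0.42, SE 0.08, limma adjusted p = 5.0e-04). Cox4i1, at chr8:120668222-120674207 on the plus strand, stood at 91.8, 104, 97.6 and 103 CPM in control hippocampus, against 135, 129, 118 and 134 CPM in control cortex (-0.38, SE 0.08, limma adjusted p = 7.8e-04). Neither gene's groups overlapped. Cox5b (-0.44), Cox6b1 (-0.36), Cox7a2l (-0.27), Cox5a (-0.26) and Cox7a2 (-0.24) were also called lower in hippocampus. Cox6a2 (-0.63, SE 0.24, limma adjusted p = 0.048) rests on 0.54 ± 0.14 CPM in control hippocampus and 1.13 ± 0.44 CPM in control cortex (SD, n = 4), and its call was lost without any 1 of 6 of the 8 libraries. The 3 tested complex IV members that were not called were Cox7c (0.01, 95% interval -0.24 to 0.27), Cox4i2 (-0.23) and Cox6b2 (0.30). Ndufa4, which belongs to complex IV but is counted with complex I by its symbol, is in neither this count nor the sum. It stood at 153, 132, 137 and 119.7 CPM in control hippocampus, against 134, 106, 111 and 128 CPM in control cortex (0.18, SE 0.09, limma adjusted p = 0.15), so that its groups overlapped with the hippocampal mean the higher one.

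**Figure D3:**
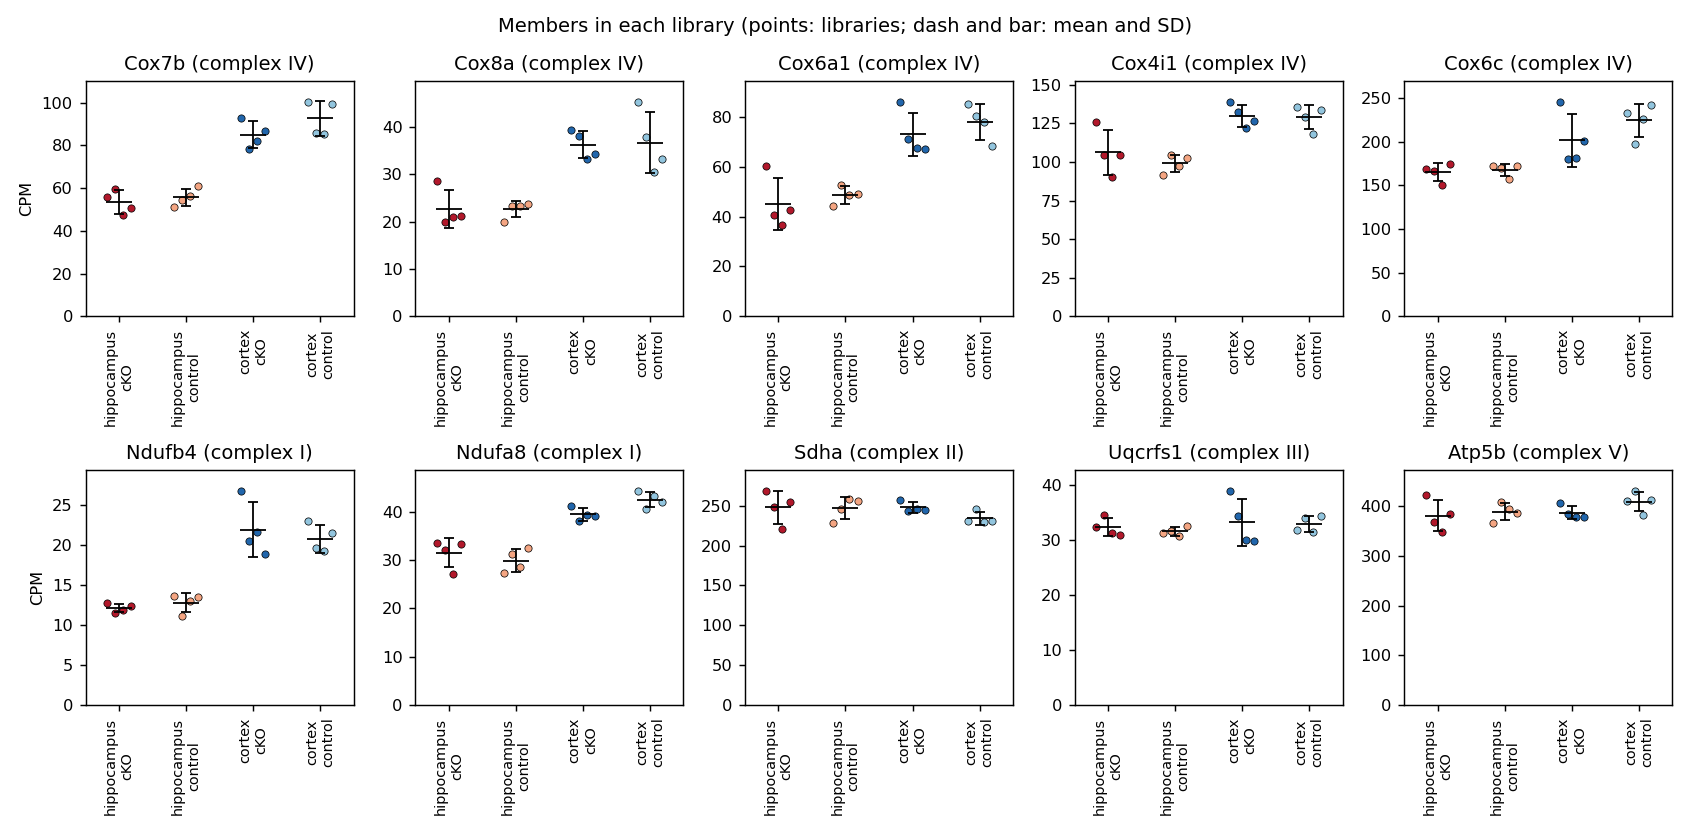
CPM of 10 members in each of 16 libraries, by group, with dashes at the mean and error bars at 1 SD over 4 libraries. The 7 genes from Cox7b to Ndufa8 sit lower in the hippocampal libraries of both genotypes on average, whereas Sdha, Uqcrfs1 and Atp5b have similar levels in the 4 groups.

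In complex I, 9 of 28 accessory subunits were lower, and so were 3 of the 7 core subunits that carry electrons, namely Ndufs7, Ndufs8 and Ndufv2. Ndufb4, an accessory subunit of the membrane arm, stood at 13.7, 11.1, 13.0 and 13.5 CPM in control hippocampus, against 23.0, 19.6, 19.2 and 21.5 CPM in control cortex (-0.68, SE 0.11, limma adjusted p = 4.7e-05). Ndufa8 stood at 27.2, 31.2, 28.5 and 32.5 CPM in control hippocampus, against 44.3, 40.6, 43.2 and 41.9 CPM in control cortex (-0.51, SE 0.08, limma adjusted p = 3.6e-05). Both genes had separate groups, and 63.0% of Ndufb4 windows were unique. The core gene Ndufv2 averaged 81.8 ± 7.39 CPM in control hippocampus and 103 ± 4.62 CPM in control cortex (-0.34, SE 0.07, limma adjusted p = 8.5e-04). Ndufs1 (-0.02, 95% interval -0.13 to 0.08) and Ndufv1, the NADH-binding subunit (-0.10, 95% interval -0.29 to 0.09), were not called.

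Complexes II, III and V held fewer lower genes. No complex II gene was called, with Sdha at 0.08 and Sdhd at -0.19. In complex III, Uqcrq (-0.55, SE 0.13, limma adjusted p = 0.0022) and Uqcr10 (-0.40, SE 0.11, limma adjusted p = 0.0079), both small subunits, were lower. Uqcrq stood at 15.0, 15.8, 16.7 and 14.9 CPM in control hippocampus, against 28.1, 19.1, 20.1 and 26.1 CPM in control cortex, with no overlap. The core protein genes Uqcrc1 (-0.11) and Uqcrc2 (-0.05) and the Rieske gene Uqcrfs1 (-0.06) were not called.

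In complex V the lower genes were Atp5h, the d subunit of the peripheral stalk (-0.34, SE 0.07, limma adjusted p = 0.0013), and Atp5k, the e subunit of the membrane part (-0.39, SE 0.14, limma adjusted p = 0.033). Atp5h stood at 57.4, 61.2, 58.2 and 56.4 CPM in control hippocampus, against 76.3, 76.8, 69.8 and 72.1 CPM in control cortex, and 49.5% of its windows were unique. None of the 5 genes of the catalytic head was called, and Atp5a1 (0.03) and Atp5b (-0.07) had intervals of -0.07 to 0.14 and -0.19 to 0.05. The c-ring genes Atp5g1 (0.23, limma adjusted p = 0.088) and Atp5g3 (0.17, limma adjusted p = 0.20) had positive values without a call.

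In all, 27 of 79 members had every control hippocampus below every control cortex, where 16.8% of all genes tested were separated in that direction. No member had every control hippocampus above, where 20% of all genes tested were separated that way. The 27 separate members are not all the same genes as the 27 called by limma. Among others, Ndufs7, Ndufs8 and Ndufa13 were called although their groups overlapped, and Uqcr11 and Ndufc1 were separate without a call. The limma call held with each of the 8 control libraries left out in turn for 20 of the 27 called members. Those 27 called members were also called by edgeR and after median-of-ratios rescaling. Among the 61 tested members with at least 80% unique windows, 19 were lower and the median was -0.17.

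Transcript length moved with the difference. Over the 79 tested members, length and log2 fold change had a Spearman's rho of 0.21, as a description over genes that share libraries. The shortest 26 members, at 371 to 645 bases, had a median of -0.29 and 11 genes lower, the next 26 a median of -0.23 and 12 genes lower, and the longest 27, at 1079 to 4715 bases, a median of -0.11 and 4 genes lower. Within the length range of complex IV, 503 to 1076 bases, 11 of 14 complex IV members were lower with a median of -0.37, and 9 of 31 members of other complexes were lower with a median of -0.19. The cytosolic ribosomal protein genes, also short, had 4 genes higher and 8 lower of 76 and a median of -0.02. The part of transcript length in the result was not tested.

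The promoters of some of the lower genes are shown for the matches they hold to known regulators of respiratory genes. NRF1 and GABP are transcription factors known to bind promoters of respiratory subunits, and YY1 has been described at several of them. RefSeq windows of 250 bases before to 50 after the start (GRCm38.p6) were found for 69 of 84 members. The letters GCATGCGC, the core of the NRF1 motif, occurred on either strand in 10 of 69 members (14.5%) and in 5.25% of 11039 tested genes. The letters CCGGAAGT for GABP occurred in 5 of 69 (7.25%), against 7.82% of tested genes, and AAGATGGCG for YY1 in 7 of 69 (10.1%), against 3.01%. The NRF1 letters were in 4 of 22 members called lower in control hippocampus (Atp5k, Cox6a1, Ndufa6 and Ndufa8) and in 5 of 43 tested members that were not called. A match describes these letters only and marks no site. The sequences below run 5′ to 3′ up to the base before the annotated start, with the NRF1 letters on either strand in capitals. They are Cox6a1 (chr5:115348982-115349208, minus strand), Ndufa6 (chr15:82354323-82354541, minus strand), Cox7b (chrX:106015450-106015699, plus strand) and Cox8a (chr19:7217617-7217866, minus strand).
Cox6a1: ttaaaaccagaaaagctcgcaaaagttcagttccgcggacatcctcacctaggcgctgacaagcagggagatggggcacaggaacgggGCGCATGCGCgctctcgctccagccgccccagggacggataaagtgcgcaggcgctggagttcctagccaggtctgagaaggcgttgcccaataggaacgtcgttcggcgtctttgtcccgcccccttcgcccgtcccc
Ndufa6: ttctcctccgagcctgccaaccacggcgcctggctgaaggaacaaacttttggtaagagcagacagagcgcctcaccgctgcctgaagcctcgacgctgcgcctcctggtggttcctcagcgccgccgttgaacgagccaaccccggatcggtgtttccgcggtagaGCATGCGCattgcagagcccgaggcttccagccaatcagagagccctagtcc
Cox7b: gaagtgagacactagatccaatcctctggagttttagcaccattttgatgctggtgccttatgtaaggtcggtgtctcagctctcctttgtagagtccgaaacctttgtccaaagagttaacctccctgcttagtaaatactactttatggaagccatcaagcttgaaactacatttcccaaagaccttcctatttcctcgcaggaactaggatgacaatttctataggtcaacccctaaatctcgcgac
Cox8a: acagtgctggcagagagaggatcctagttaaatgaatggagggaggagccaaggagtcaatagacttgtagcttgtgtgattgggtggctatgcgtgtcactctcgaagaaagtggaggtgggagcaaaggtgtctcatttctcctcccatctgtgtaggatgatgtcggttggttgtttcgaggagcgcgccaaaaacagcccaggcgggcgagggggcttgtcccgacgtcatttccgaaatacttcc
In Cox6a1 the letters overlap on both strands, so that the marked run is longer than the motif. Cox7b and Cox8a, with the largest and one of the next largest differences of complex IV, hold none in the printed stretch.

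The difference between regions was also measured in the cKO libraries, which share no sample with the controls but were fitted together with them. This comparison was added after the control comparison had been seen. In cKO hippocampus 21 members were lower than in cKO cortex and 1 was higher, of 79, where 37.3% of all genes were called and 15.2% were lower. The members' median was -0.14, against 0.04 over all genes tested. Complex IV again had the largest share lower, with 9 of 14 and a median of -0.31. Complex I had 7 of 37 lower, complex II 1 of 4, complex III 2 of 8 and complex V 2 of 16. Of the 27 members called in controls, 18 were called in cKO as well (66.7% of the control calls and 81.8% of the 22 cKO calls), and all 27 had a negative value in cKO, with a median of -0.30. The fit held all 16 libraries, so its estimate of the spread also drew on the controls. Fitted alone, the 8 cKO libraries gave 16 called members, 15 lower and 1 higher.

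The members with large differences in controls were lower in cKO too. Cox7b stood at 56.0, 59.8, 47.2 and 50.9 CPM in cKO hippocampus, against 92.8, 78.4, 82.1 and 86.9 CPM in cKO cortex (-0.67, SE 0.08, limma adjusted p = 2.3e-06). Cox6a1 stood at 60.2, 40.6, 36.7 and 42.8 CPM in cKO hippocampus, against 85.9, 71.2, 67.7 and 67.3 CPM in cKO cortex (-0.71, SE 0.12, limma adjusted p = 7.6e-05). Ndufb4 stood at 12.8, 11.5, 11.9 and 12.4 CPM in cKO hippocampus, against 26.8, 20.5, 21.6 and 18.9 CPM in cKO cortex (-0.82, SE 0.11, limma adjusted p = 6.1e-06). For all 3 genes the regions did not overlap in cKO.

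The 1 member called higher in cKO hippocampus was Cox6b2 (0.96, SE 0.30, limma adjusted p = 0.0155), at 0.94, 0.72, 1.16 and 1.00 CPM in cKO hippocampus and, in 3 cKO cortices, 0, 0.12 and 0.11 CPM. The cortical library DJ2, at 1.103 CPM, lay among the hippocampal ones. The call was lost without cortical DJ1 and by edgeR (adjusted p = 0.054). Cox6b2 passed the 0.5 CPM minimum only through its hippocampal values. Its means were 0.96 and 0.60 CPM in cKO and control hippocampus, and 0.33 and 0.38 CPM in cKO and control cortex. The call is therefore no fair test of a higher level in hippocampus. With a minimum of 1 CPM, 21 members were called lower and none higher. The count of calls depended on single libraries: 13 members were called, all lower, without cKO cortex DJ1, and 13 lower and 1 higher without cKO hippocampus DJ18. DJ18 had the lowest member sum of its group, 3781 CPM, and DJ1 the highest of all libraries, and their ribosomal protein sums were 3482 and 4281 CPM. With median-of-ratios rescaling 30 were lower and 1 higher. Every cKO hippocampus lay below every cKO cortex for 13 of 79 members, a share near the 13.4% of all genes tested. Every one lay above for 1 member, where 19.7% of all genes tested were separated in that direction.

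**Figure D4:**
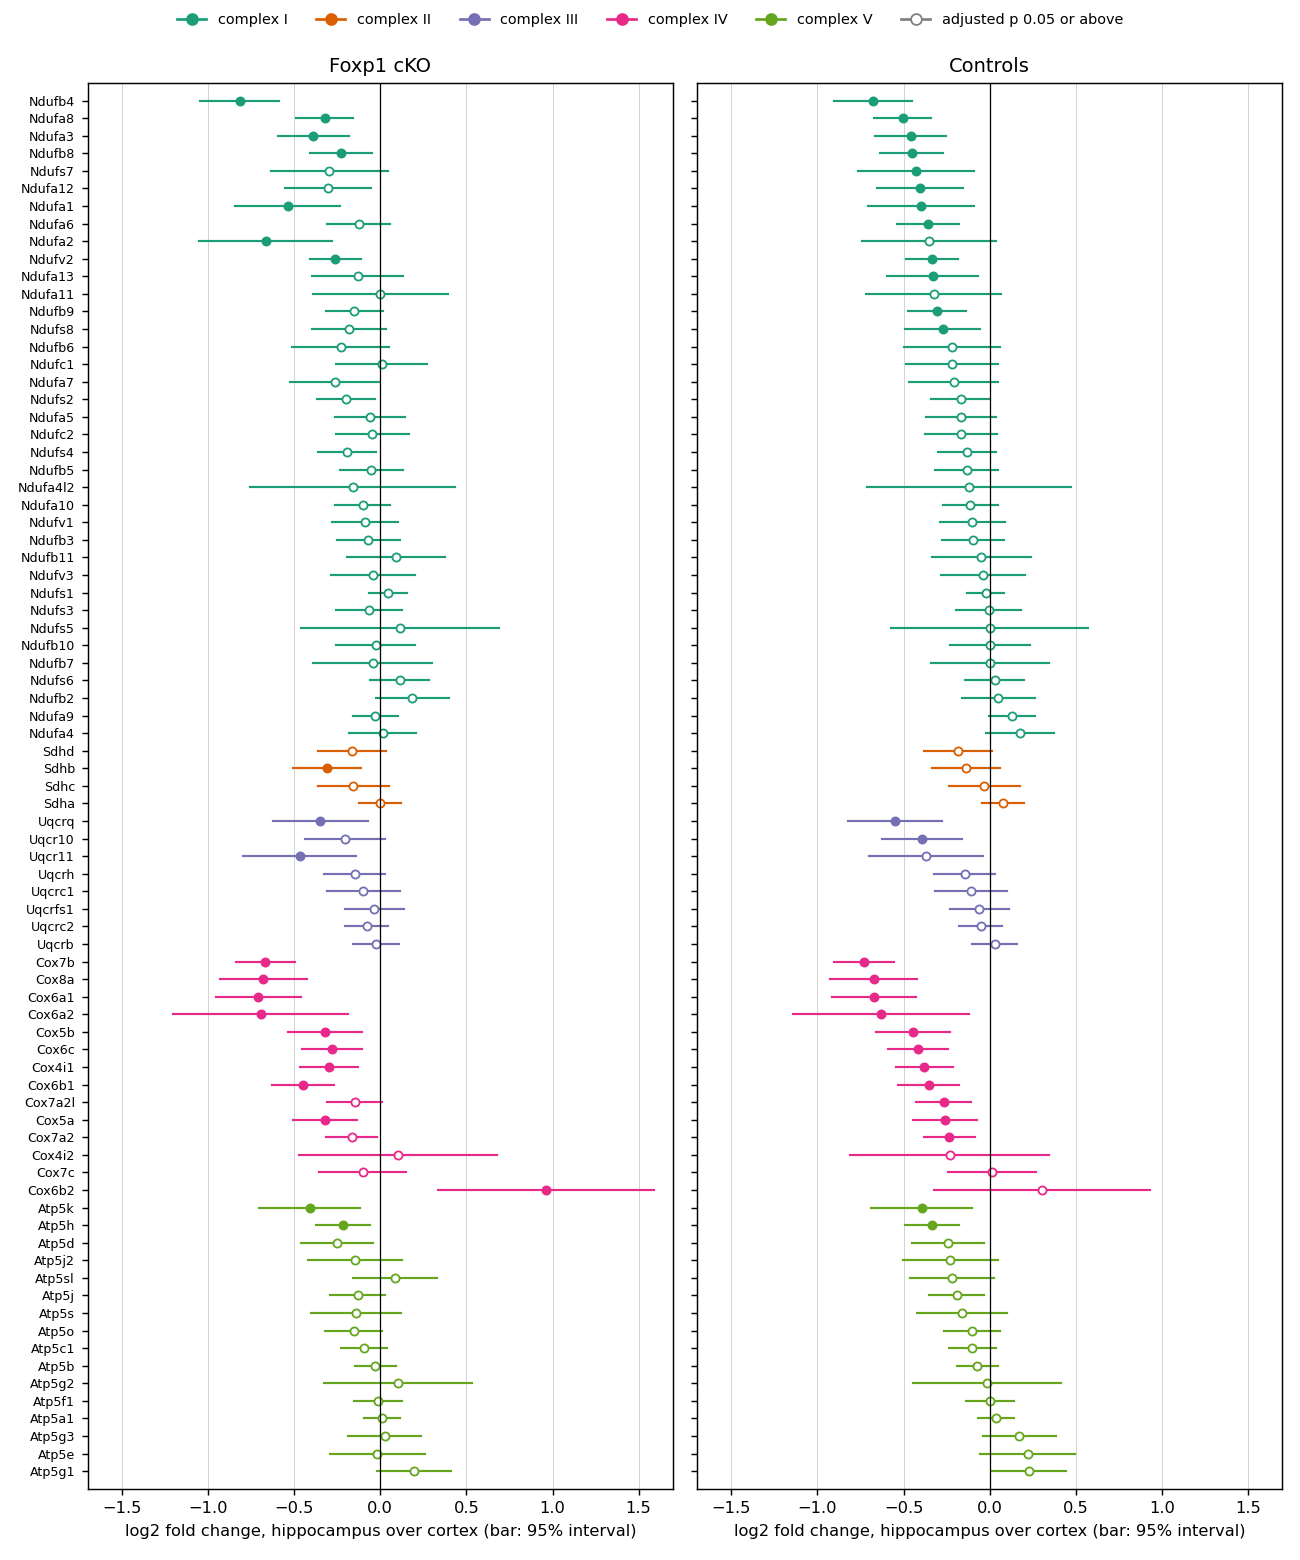
Log2 fold change of each tested member, hippocampus over cortex, in the cKO libraries on the left and the control libraries on the right, with 95% intervals and members grouped by complex and sorted by the control value. Filled points have an adjusted p below 0.05, 22 in cKO and 27 in controls, and the filled points lie to the left of 0 except Cox6b2 in cKO.

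Genes around the respiratory chain were counted in the same fits from lists of known pathway members. In hippocampus none was called between genotypes in the lists of assembly factors, tricarboxylic acid cycle, glycolysis, mitochondrial carriers and import, mitochondrial ribosomal proteins and regulators of mitochondrial biogenesis. Their smallest adjusted p belonged to Suclg2, a succinyl-CoA ligase subunit (0.41, SE 0.10, limma adjusted p = 0.067), and Ttc19, an assembly factor of complex III (-0.23, SE 0.06, limma adjusted p = 0.12). Ttc19 was called in hippocampus after median-of-ratios rescaling (limma adjusted p = 0.039) and by edgeR (adjusted p = 0.043). The smallest p of the other lists in hippocampus gave Pfkp, a phosphofructokinase (0.20), Pprc1, a PGC-1-related coactivator (0.33), Slc25a27, an uncoupling protein (0.31), Mrps15, a mitochondrial ribosomal protein (0.34), and Usmg5, a small ATP synthase component (-0.18), none of them called.

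In cortex 6 genes of these lists were called: 1 of 44 assembly factors, 2 of 17 regulators, 2 of 30 carrier and import genes, 1 of 76 mitochondrial ribosomal proteins, and none of 20 tricarboxylic acid cycle and 17 glycolysis genes. Each of these shares is below the 13.5% of all genes called in cortex, with the regulators at 11.8%. Cyc1 (0.19), Suclg1, a succinyl-CoA ligase subunit (-0.19), and the hexokinase Hk2 (0.46) had the smallest p of lists without a call. Esrrg, the estrogen-related receptor gamma, which is known to drive genes of oxidative metabolism, stood at 40.0, 40.6, 44.5 and 40.0 CPM in cKO cortex, against 65.3, 75.8, 63.0 and 73.3 CPM in control cortex (-0.74, SE 0.08, limma adjusted p = 2.9e-06). Its coactivator Ppargc1a (PGC-1 alpha), known as a main regulator of mitochondrial biogenesis, stood at 122, 124, 118 and 119.8 CPM in cKO cortex, against 143, 144, 149 and 151 CPM in control cortex (-0.28, SE 0.05, limma adjusted p = 0.0012). The groups were separate for both, and both calls held with each library left out and with edgeR. In hippocampus Esrrg (-0.28, SE 0.15, limma adjusted p = 0.45) and Ppargc1a (-0.13, SE 0.07, limma adjusted p = 0.44) were not called, and the interaction was not called for either (limma adjusted p = 0.23 and 0.41).

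The other 4 were Ttc19, Mrpl12, Tomm70a and Tomm20. Ttc19 fell to 107 ± 5.65 CPM in cKO cortex, against 133 ± 5.14 CPM in control cortex (-0.30, SE 0.06, limma adjusted p = 0.0015). Mrpl12, a mitochondrial ribosomal protein, fell to 8.95 ± 1.24 CPM in cKO cortex, against 12.4 ± 0.73 CPM in control cortex (-0.46, SE 0.13, limma adjusted p = 0.024), a call lost without control DJ3, DJ7 or DJ8 or cKO DJ5. The outer membrane import receptors Tomm70a (0.17, SE 0.05, limma adjusted p = 0.020) and Tomm20 (0.15, SE 0.05, limma adjusted p = 0.042) were higher. Both lost the call after median-of-ratios rescaling (limma adjusted p = 0.073 and 0.13) and by edgeR (adjusted p = 0.068 and 0.12). Tomm70a also lost it without control DJ7 or DJ8, and Tomm20 without control DJ6, DJ7 or DJ8 or cKO DJ1, DJ2 or DJ4.

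Markers of several cell types moved between genotypes in cortex. Of 8 neuronal markers 3 were lower in cKO cortex, and their sums did not overlap, at 12732 to 13171 CPM in cKO and 14669 to 15215 CPM in control cortex. Among them Snap25, a synaptic vesicle fusion protein (-0.41, SE 0.04, limma adjusted p = 2.7e-06), and the neurofilament gene Nefl (-0.36, SE 0.04, limma adjusted p = 1.3e-05) were lower. Of 8 interneuron markers 2 were lower and none higher, and their sums overlapped, at 868 to 906 CPM in cKO and 864 to 941 CPM in control cortex. Parvalbumin (Pvalb), the marker of fast-spiking interneurons, averaged 19.5 CPM in cKO and 42.3 CPM in control cortex (-1.10, SE 0.09, limma adjusted p = 1.6e-07), while Gad2 averaged 369 CPM in cKO and 337 CPM in control cortex. The interaction was called for Pvalb (0.88, SE 0.17, limma adjusted p = 0.0066). Of 10 oligodendrocyte and myelin markers 9 were lower in cKO cortex, their sum being 3151 to 4207 CPM in cKO and 5278 to 7230 CPM in control cortex. Of 9 striatal markers 7 were higher, with sums of 748 to 1131 CPM in cKO and 301 to 648 CPM in control cortex. The sums of excitatory neuron markers overlapped in cortex, at 3501 to 3675 CPM in cKO and 3392 to 3749 CPM in control cortex. In hippocampus those sums were separate, at 3099 to 3396 CPM in cKO and 3448 to 4242 CPM in control hippocampus. Sums of cortical neuron markers were separate there too, at 304 to 447 CPM in cKO and 230 to 287 CPM in control hippocampus. The sums of the 8 neuronal markers overlapped in hippocampus. The part of these cell types in the members' values was not tested.

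**Figure D5:**
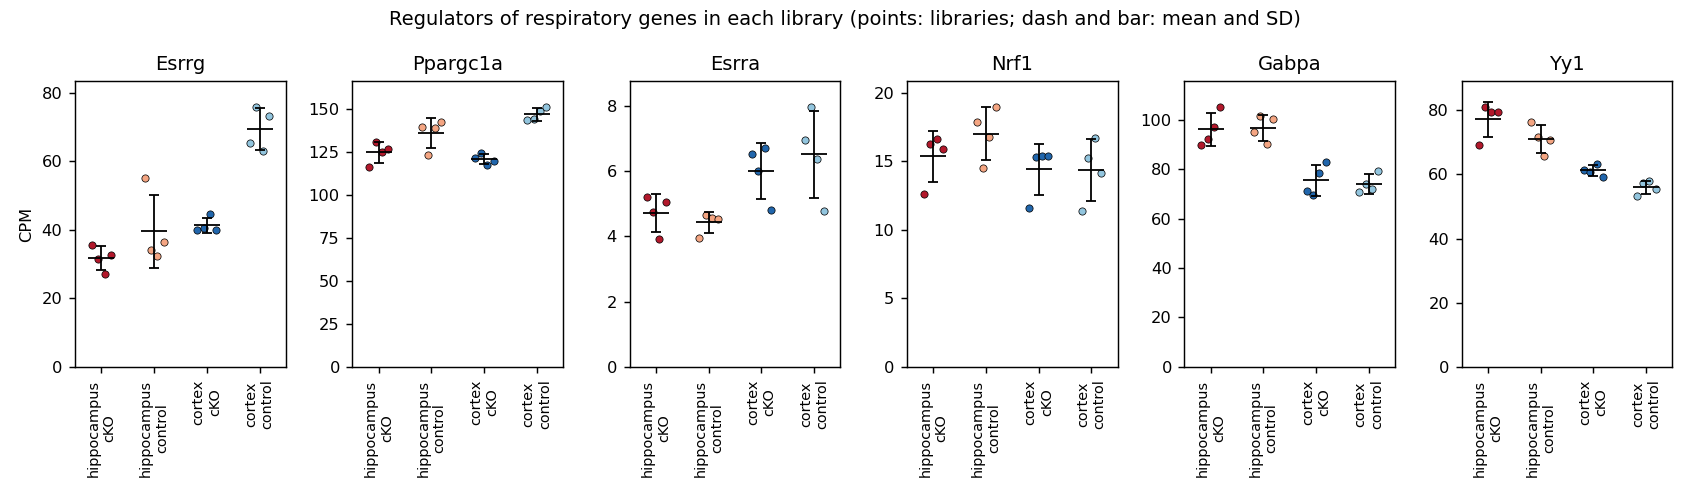
CPM of 6 regulators of respiratory genes in each of 16 libraries, by group, with dashes at the mean and error bars at 1 SD over 4 libraries. Esrrg and Ppargc1a are lower in cKO than in control cortex without overlap, while Gabpa and Yy1 are higher in the hippocampal than in the cortical libraries.

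The surrounding pathways were counted between the regions of controls as well, where 38% of all genes were called and 16.7% were lower. Of 17 glycolysis genes 9 were lower in hippocampus and 2 higher, with a median of -0.23, and Ldhb, the lactate dehydrogenase isoform of oxidative tissues, had the largest fall (-0.74, SE 0.10). Of 20 genes of the tricarboxylic acid cycle and pyruvate dehydrogenase 7 were lower and 1 higher (median -0.06), with malate dehydrogenase Mdh1 at -0.45 and Dlat, a subunit of pyruvate dehydrogenase, higher at 0.31. Of 44 assembly factors 6 were lower and 1 higher (median -0.11), so that 13.6% were lower. Of 76 mitochondrial ribosomal proteins 7 were lower and none higher, and of 30 carrier and import genes 4 were lower and 3, Tomm70a, Tomm20 and the uncoupling protein Ucp2, higher. Atpif1, the inhibitor of ATP synthase, was lower by a log2 fold change of -0.72 (SE 0.09, limma adjusted p = 3.0e-06), while Cycs, cytochrome c (-0.13), and Cyc1, cytochrome c1 of complex III (-0.02), were not called.

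Regulators did not share a direction between regions. Esrrg (-0.83, SE 0.13) and Esrra (-0.49, SE 0.16) were lower in control hippocampus, while Gabpa (0.38, SE 0.07), Gabpb2 (0.75, SE 0.07), Yy1 (0.34, SE 0.06) and Nfe2l2 (0.35, SE 0.11) were higher, all called by limma. Ppargc1a (-0.11), Nrf1 (0.24) and Tfam (0.07), which encodes a transcription factor of mitochondrial DNA, were not called.

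Markers of cell types differed between the regions beside these results. Of 8 neuronal markers 6 were lower in control hippocampus, with a median of -0.28 and summed levels of 11027 to 11915 CPM in control hippocampus and 14669 to 15215 CPM in control cortex. Snap25 had -0.85 (SE 0.04), with means of 3321 CPM in control hippocampus and 5991 CPM in control cortex. Map2 went the other way, with means of 4076 CPM in control hippocampus and 3753 CPM in control cortex. The sums of excitatory neuron markers overlapped, at 3448 to 4242 CPM in control hippocampus and 3392 to 3749 CPM in control cortex. Of 8 interneuron markers 3 were lower and 1 higher, with sums of 901 to 1108 CPM in control hippocampus and 864 to 941 CPM in control cortex. Pvalb had -1.37 (SE 0.12), while Gad2 averaged 494 CPM in control hippocampus and 337 CPM in control cortex. Astrocyte markers had 4 genes higher and 1 lower of 8, with sums of 9162 to 10257 CPM in control hippocampus and 9676 to 11160 CPM in control cortex. All 6 choroid plexus markers were higher, at 567 to 1045 CPM in control hippocampus and 3.34 to 155 CPM in control cortex. Of the region markers, 8 of 8 hippocampal ones were higher and 7 of 8 cortical ones lower in control hippocampus, as the labels give the tissue. Oligodendrocyte and myelin marker sums overlapped in controls, at 5237 to 13737 CPM in control hippocampus and 5278 to 7230 CPM in control cortex. In cKO they were separate, at 6549 to 9379 CPM in hippocampus and 3151 to 4207 CPM in cortex. Sums of neuronal markers were separate in cKO too, at 11002 to 11572 CPM in hippocampus and 12732 to 13171 CPM in cortex. The part of cell composition in the members' difference was not tested in either genotype.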

How the data were processed

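The authors deposited a table of CPM for 21999 genes in 16 libraries of poly(A) RNA sequenced on a NextSeq instrument, per the labels' protocols. The submitters' processing notes name STAR, HTSeq and edgeR and the builds mm10 and GRCm38. Their versions, the annotation, strand and the treatment of reads with several matches were not stated in them. The deposited values were whole multiples of 1 read in each library, so that 100% of them gave whole counts within 0.001 reads, and 1 read was worth 0.0675 to 0.144 CPM. Further tables, deposited for the changed genes of each region, hold a log2 fold change and an adjusted p-value per gene.

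From the CPM, log2(CPM + 0.5) was fitted with limma 3.58.1 in R 4.3.3 with a mean-variance trend: 8 libraries for each genotype comparison, and all 16 for the interaction and the regions. Alternatives were other pseudocounts, expression minima and fits, median-of-ratios rescaling, edgeR 4.0.16 on the recovered reads and leaving out each library. On those reads edgeR called 59 genes higher and 131 lower in hippocampus, and 853 higher and 941 lower in cortex. The comparison of regions in cKO and the restriction to members with at least 80% unique windows were chosen after seeing the data. The fits were tested on simulated data. Replicates differed by more than sampling noise in all 24 pairs (2.19 to 17.9 chi-square units per gene). Intervals are 95% and cover the spread between these libraries.

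The members and lists were chosen with earlier results of these data known. Named members were those with the smallest p of each complex and genotype comparison, the 3 smallest of the interaction, up to 2 called members of each complex with the largest difference between regions, the isoform pairs and the core subunits. From each pathway list up to 2 called genes, or the 1 with the smallest p, were considered for naming. Genes named beyond this rule, among them those given for the regions outside the members, were chosen after their values were seen. Uniqueness is the share of 50-base windows of a principal transcript found in no other gene of GENCODE M21.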

Additional observations from a re-analysis of the deposited data

Results flagged for a closer look

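In 148 groups of 4 libraries, the summed levels and the named members of at least 1 CPM on average were examined for a library whose gap to the nearest other was a larger share of the group's range than Dixon's 95% critical value for 4 values. There were 22, and chance gives about 1 in 20. Of these, 6 belonged to cKO cortex DJ1 and 4 to control hippocampus DJ17.

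In cKO cortex, DJ1 stood above the other 3 libraries in complex I (1499 CPM), complex III (497 CPM), complex IV (919 CPM), complex V (1635 CPM), all members (4945 CPM) and Sdha (258 CPM). In control hippocampus, DJ17 stood below the others in complex V (1397 CPM), all members (3957 CPM), Atp5sl (11.7 CPM) and Cox8a (20.04 CPM). In the same library the myelin markers summed to 13737 CPM, the highest of all 16. In control cortex, DJ7 stood apart with a low complex III sum (409 CPM) and a high Sdhd (44.5 CPM), and DJ6 with a high Sdha (246 CPM). In cKO hippocampus, DJ15 was high for Ndufb8 (29.9 CPM) and Cox8a (28.7 CPM), DJ19 was high for Sdhd (36.0 CPM), Atp5g2 (3.27 CPM) and Cox5a (30.2 CPM), and DJ18 was low for Ndufa9 (50.7 CPM). In control hippocampus, DJ21 was high for Sdhd (40.1 CPM) and Ndufa6 (36.8 CPM) and low for Cox6c (158 CPM).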

How the results depend on the processing

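The count of members called in hippocampus stayed at 0 with each library left out, and in cortex it ran from 0 to 1. With 1 library left out, the count of all genes called lay between 56 (without control hippocampus DJ20) and 295 (without DJ17) in hippocampus, and control DJ21 and cKO DJ16 and DJ19 also moved it by over 1.5 times. For the interaction it lay between 248 (without DJ20) and 699 (without DJ17), and 16 libraries in 1 fit gave 446 in hippocampus. Between regions of controls, 22 to 26 members were called with 1 library left out, 1 of them higher without cortex DJ8 or hippocampus DJ17. In cKO 13 to 27 members were called with 1 library left out. The members' median log2 fold change ran from -0.03 to 0.06 in hippocampus, from -0.06 to 0.00 in cortex and from -0.20 to -0.16 between regions of controls. No call of a named member reversed. After median-of-ratios rescaling, calls between genotypes shifted to the lower side, 60 higher and 135 lower in hippocampus and 829 higher and 951 lower in cortex, and the regions of controls gave 2655 higher and 2559 lower. No paired analysis was possible because no replicate number is shared between groups. Depth limits the members under about 1 CPM.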
